A study of Mus musculus with 8 samples.

Results

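The nuclear genes of respiratory chain complexes III, IV and V were compared between cultured kidney tubular epithelial cells of control and Aldh2 knockout mice. Members were taken by gene symbol: the Uqcr and Uqcc genes, Cox4 to Cox8, Cox10 to Cox20, the Atp5 genes, and Cyc1, Cycs, Surf1, Sco1, Sco2, Bcs1l, Atpaf1, Atpaf2 and Atpif1, with 4 pseudogene symbols dropped. This gave 57 of the 14145 genes analysed, of which 13 belong to complex III, 1 is cytochrome c (Cycs), 24 belong to complex IV and 19 to complex V. The list used no measured value, though it was chosen with earlier results of these data known. No filter on low values was applied to it here, but the row filter of the deposited table is not given. Sco2, Cox4i2, Cox6a2 and Cox8b were not among the genes and are not analysed here.

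Complex III passes electrons from ubiquinol to cytochrome c, complex IV passes them from cytochrome c to oxygen, and complex V, the ATP synthase, uses the proton gradient that the chain builds to make ATP. Complexes III and IV and the membrane part of complex V combine subunits encoded in the nucleus with a few encoded in mitochondrial DNA. Dedicated assembly factors insert the haem, copper and iron-sulphur centres of complexes III and IV. Kidney tubules are rich in mitochondria because the reabsorption of salt and solutes needs ATP.

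The control group (4 libraries, labelled WT) came from Aldh2Ctrl mice, and the knockout group (4 libraries) came from Aldh2TEC-KO mice, in which the tubular epithelium has lost Aldh2, a mitochondrial dehydrogenase that clears acetaldehyde and other reactive aldehydes. All cells were primary kidney cells grown in serum-containing DMEM/F12 medium, and none were treated. The genotype labels of knockouts 1 to 4 name ALDH2, ALDH3, ALDH4 and ALDH5 in turn, so the sample titles defined the groups. What drives the deletion, how old the mice were and whether each library is a separate animal remain not given in the sources used here, and the p-values therefore reflect variation among these libraries only, part of which may be technical.

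Aldh2 measured 31.1, 23.7, 25.5 and 25.2 FPKM in controls 1 to 4 and 0.879, 1.64, 1.20 and 1.26 FPKM in knockouts 1 to 4, so every library carried the level that its title implies. Depth recovered from the FPKM values (fragments or reads scaled to gene length and library depth) was 17042600 to 17754000 reads in the controls and 17886800 to 18751800 in the knockouts. Xist and Y-linked transcripts marked all controls and knockouts 3 and 4 as male and knockouts 1 and 2 as female, so sex and genotype are partly confounded. All 8 of the tubular epithelium markers were measured, with a summed level of 1375 to 3187 FPKM in controls and 786 to 6608 FPKM in knockouts. Of 6 proximal tubule markers, Cubn, Slc34a1 and Slc5a2 were not among the genes and the other 3 summed to 3.00 to 19.97 FPKM in controls and 1.73 to 22.7 FPKM in knockouts. Loop of Henle markers (2 of 4 measured) summed to 2.75 to 20.5 FPKM in controls and 0.777 to 2.76 FPKM in knockouts, principal cell markers (2 of 4) to 3.20 to 12.8 FPKM and 0.189 to 8.78 FPKM, and podocyte markers (2 of 4) to 20.5 to 30.7 FPKM and 16.6 to 34.8 FPKM. Endothelial markers (2 of 5) were lower in every knockout library, at 1.03 to 3.00 FPKM against 4.72 to 6.37 FPKM in controls. Fibroblast markers (4 of 6) summed to 448 FPKM in control 1, to 34.5 to 66.8 FPKM in the other 3 controls and to 19.6 to 37.1 FPKM in knockouts. Macrophage markers (10 of 10) summed to 1014 FPKM in control 1 and to 47.3 to 95.4 FPKM in the other 3 controls. In knockouts they summed to 212 to 1661 FPKM, lowest in knockout 3. All 10 had a higher knockout mean of log2(FPKM + 1) (all genes, 44.5%), and 0 passed the test over all genes described below.

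The levels of 13 members (Atp5f1, Atp5g1, Atp5g2, Atp5h, Atp5k, Atp5l, Atp5o, Atpaf1, Cox6c, Cox7a2l, Cox7c, Cycs and Uqcrb) are uncertain because a near copy elsewhere in the genome is also in the table. Gm10039, Gm10221 and Gm14117, near copies of Atp5g1, Atp5l and Atpaf1, had mean FPKM in controls of 550%, 664% and 305% of the member's own. These percentages depend on gene length, which was 411, 309 and 843 bp for the copies and 4912, 6443 and 3609 bp for the members. In control 1 the copies had 371, 318 and 133 recovered reads, against 745, 1081 and 152 for the members.

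Promoter windows of 5 members are shown because these genes stand for 3 of the patterns described after them. No window is shown for the pattern of 16 members in which only knockouts 1, 3 and 4 were above every control. The motifs searched are those of factors known to act on respiratory chain genes. Uqcc2, Cox6a1 and Atp5g1 have the largest difference in their complex among members whose groups did not overlap. Uqcr11 (high in knockouts 3 and 4) and Atp5j (high in knockout 1) were chosen after their values were seen. Each window runs 5′ to 3′ from 250 bases before to 50 bases after the gene start, from RefSeq on GRCm38.p6, and capitals mark matches to the motifs named in the next paragraph.
Uqcc2, chr17:27133842-27134141, minus strand: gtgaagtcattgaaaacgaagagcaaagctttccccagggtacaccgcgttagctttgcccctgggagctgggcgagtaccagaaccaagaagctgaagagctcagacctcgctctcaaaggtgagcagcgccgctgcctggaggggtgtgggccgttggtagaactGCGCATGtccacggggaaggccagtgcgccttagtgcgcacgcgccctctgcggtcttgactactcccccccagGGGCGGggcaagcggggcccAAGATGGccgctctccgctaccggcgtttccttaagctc
Cox6a1, chr5:115348909-115349208, minus strand: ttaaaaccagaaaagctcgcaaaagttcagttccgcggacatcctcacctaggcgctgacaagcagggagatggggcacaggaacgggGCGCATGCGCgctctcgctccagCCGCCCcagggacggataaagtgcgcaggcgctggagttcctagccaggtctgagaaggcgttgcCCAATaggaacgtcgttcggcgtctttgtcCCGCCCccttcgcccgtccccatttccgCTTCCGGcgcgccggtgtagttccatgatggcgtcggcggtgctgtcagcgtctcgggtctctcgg
Atp5g1, chr11:96075582-96075881, minus strand: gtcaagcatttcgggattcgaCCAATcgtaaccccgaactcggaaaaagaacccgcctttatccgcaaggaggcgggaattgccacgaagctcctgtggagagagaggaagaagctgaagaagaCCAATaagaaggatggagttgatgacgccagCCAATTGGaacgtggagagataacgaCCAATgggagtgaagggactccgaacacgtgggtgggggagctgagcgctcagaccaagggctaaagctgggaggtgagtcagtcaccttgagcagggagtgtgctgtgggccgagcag
Uqcr11, chr10:80406772-80407071, minus strand: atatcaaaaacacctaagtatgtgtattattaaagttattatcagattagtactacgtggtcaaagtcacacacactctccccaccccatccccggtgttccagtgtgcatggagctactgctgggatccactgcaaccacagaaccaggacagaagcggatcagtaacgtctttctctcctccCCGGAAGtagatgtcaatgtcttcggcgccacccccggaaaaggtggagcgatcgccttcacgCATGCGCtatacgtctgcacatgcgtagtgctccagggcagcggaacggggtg
Atp5j, chr16:84835576-84835875, minus strand: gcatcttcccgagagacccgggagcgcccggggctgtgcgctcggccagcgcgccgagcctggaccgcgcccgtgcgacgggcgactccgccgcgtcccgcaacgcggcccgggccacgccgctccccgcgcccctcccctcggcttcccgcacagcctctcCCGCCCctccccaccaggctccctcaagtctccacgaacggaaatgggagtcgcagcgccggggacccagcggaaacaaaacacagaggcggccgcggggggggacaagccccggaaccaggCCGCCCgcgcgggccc

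RefSeq windows were matched for 48 of the 57 members (53 windows). No window was matched for Cyc1, Uqcrc2, Uqcrb, Uqcrq, Cox17, Cox18, Cox4i1, Cox6c and Atp5a1. The ETS motif (CCGGAAG, on either strand) was found in 35.9% of member windows, against 17.1% of the 12878 windows of genes in the table and 8.86% of all 32851 windows of that length. The NRF1 core (CATGCGC) was in 17.0% of member windows, 6.61% of those of genes in the table and 3.91% of all windows. The YY1 motif (AAGATGG) was in 15.1%, 6.86% and 6.34%, and the ERR motif (AAGGTCA) in 11.3%, 3.21% and 4.72%, in the same order. The CCAAT box (CCAAT) was in 50.9%, 37.3% and 37.4%, and the GC box (GGGCGG) in 49.1%, 62.3% and 35.7%. No matches to different motifs overlapped in the windows shown. Cox6a1 and Uqcr11 each hold both an ETS match and an NRF1 core match, Cox6a1 with a CCAAT box and GC boxes as well, Uqcc2 holds an NRF1 core, a YY1 match and a GC box, Atp5g1 holds CCAAT boxes only, and the Atp5j window shown holds GC boxes only. A second RefSeq window of Atp5j, not shown, holds 1 ETS match and 1 YY1 match. The matches are counts of letters in these windows and do not show that a factor was bound.

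Most members had a higher mean level in the knockout libraries, but no member passed the test over all genes. The knockout mean of log2(FPKM + 1) was higher for 49 of 57 members, against 44.5% of all genes (6295 of 14145), and the median log2 difference, knockout minus control, was 0.29 over the members and -0.06 over all genes. With limma on log2(FPKM + 1) and Benjamini-Hochberg adjustment over all 14145 genes, 0 members had an adjusted p below 0.05 (all genes, 0.0778%, or 11 genes), and limma-voom on the recovered reads also called 0 members. The lowest adjusted p of a member was 0.143, for Cox14. At an unadjusted p below 0.05, 19 members were higher (all genes, 7.58%) and 0 were lower (all genes, 11.6%). In bulk samples, more cells of a type and more RNA per cell cannot be told apart.

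Levels in the 4 knockout libraries overlapped with those of the controls for most members. For 10 members every knockout library lay above every control (all genes, 4.76%), and for 0 members every knockout library lay below (all genes, 6.86%). The members that lay above were Bcs1l and Uqcc2 of complex III, Cox14, Cox19, Cox5b and Cox6a1 of complex IV, and Atp5g1, Atp5h, Atp5l and Atpaf2 of complex V. Without knockout 2 the count was 26 members (all genes, 10.4%). The authors' deposited table marks 4 members as up (Uqcrq, Uqcc2, Cox4i1 and Atp5g1; all genes, 2.34%) and 0 as down (all genes, 3.37%), and it gives 0 members an adjusted p below 0.05.

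**Figure D1:**
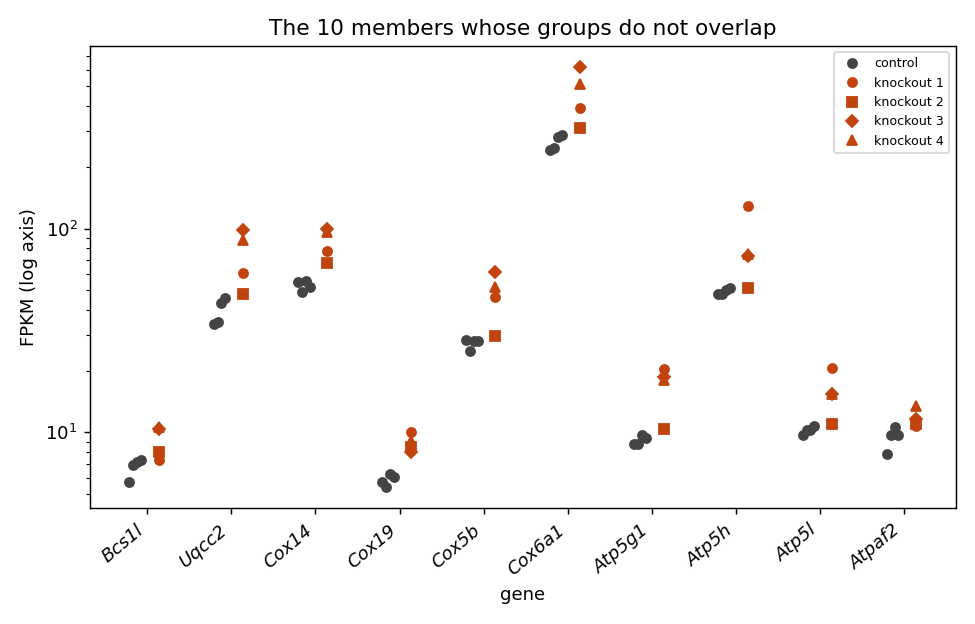
FPKM (log axis) of the 10 members whose groups did not overlap, with controls as grey circles and each knockout library as its own symbol. In each gene the lowest knockout library sits above the highest control, and the lowest knockout value is that of knockout 2 in 7 of the 10 genes.

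The 4 knockout libraries did not share 1 pattern. Knockout 1 was above all 4 controls for 36 members (all genes, 31.3%) and below all of them for 10 (all genes, 38.5%). Knockout 2 was above for 11 (all genes, 29.6%) and below for 12 (all genes, 21.1%). Knockout 3 was above for 42 (all genes, 31%) and below for 9 (all genes, 45.9%), and knockout 4 was above for 39 (all genes, 32.1%) and below for 9 (all genes, 40.3%). The median difference of the members from the control mean was 0.37, 0.02, 0.56 and 0.54 on the log2 scale in knockouts 1 to 4, so knockout 2 lay with the controls, whose own medians ran from -0.07 to 0.08.

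**Figure D2:**
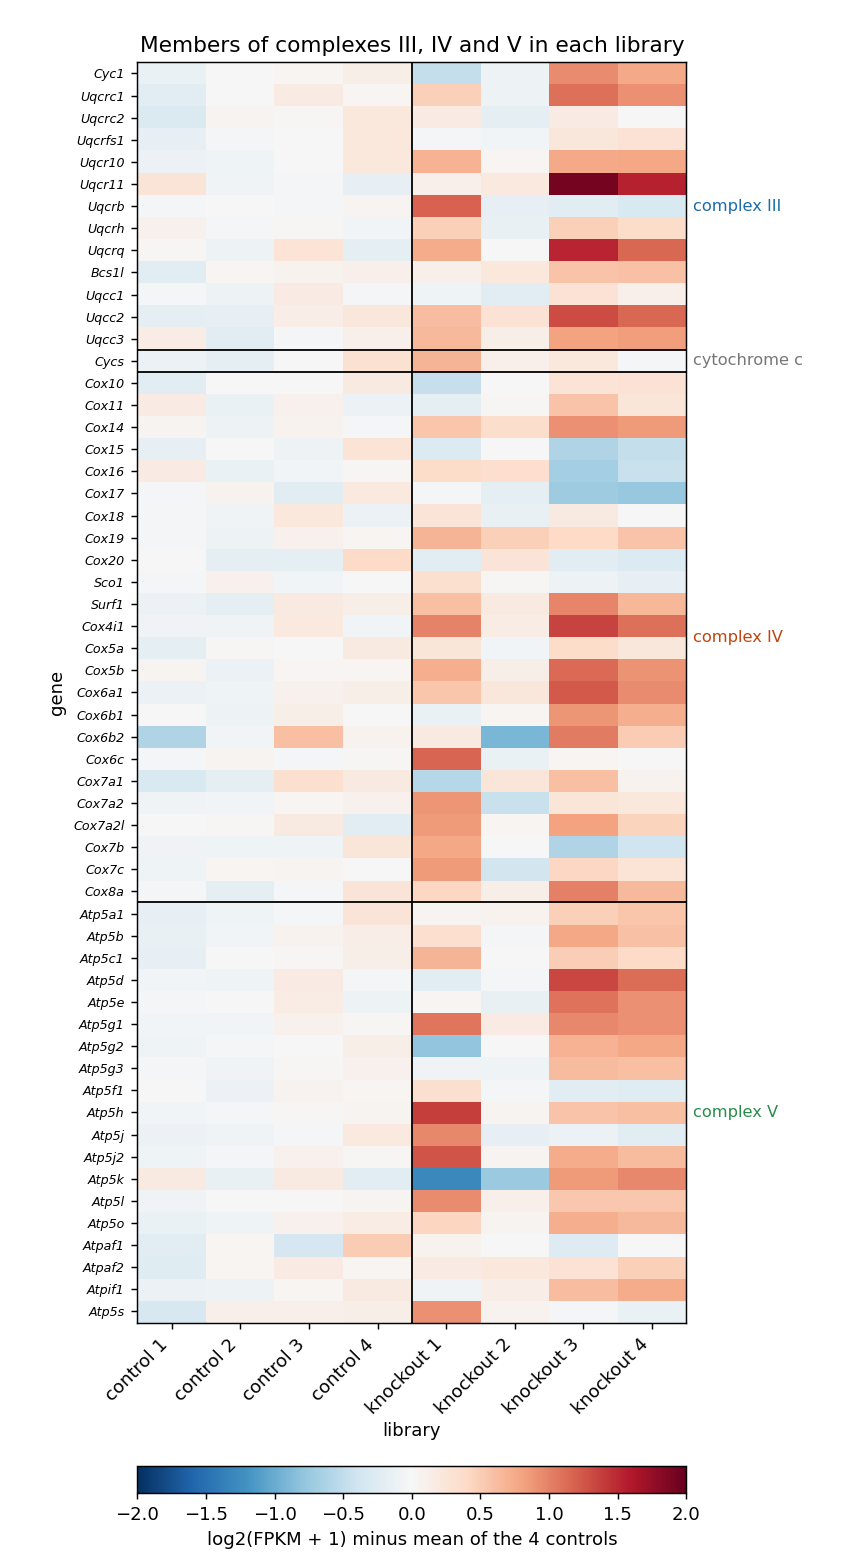
Log2(FPKM + 1) of each of the 57 members (rows, by complex) minus the mean of the 4 controls, in each library (columns). Red cells are above the control mean and blue cells below it, and knockout 2 is the palest of the knockout columns, with a median of 0.02.

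Members also divided by which knockout libraries exceeded the controls. In 16 members knockouts 1, 3 and 4 were above every control and knockout 2 was not, among them Cox4i1, Uqcrq, Uqcr10 and Cox8a (all genes with this pattern, 5.68%). In 13 members only knockouts 3 and 4 were above every control, among them Uqcr11, Cyc1, Atp5d, Atp5e and Cox6b1 (all genes, 9.23%). In 9 members only knockout 1 was above every control, namely Uqcrb, Cycs, Cox6c, Cox7b, Cox18, Sco1, Atp5f1, Atp5j and Atp5s (all genes, 10.8%). Only knockout 3 was above for 3 members, Uqcc1, Cox6b2 and Cox7a1 (all genes, 3.78%), and only knockouts 1 and 2 were above for Cox16 (all genes, 5.64%). For 5 members, Uqcrc2, Cox15, Cox17, Cox20 and Atpaf1, no knockout library was above every control (all genes, 36.9%).

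The GC content of the transcripts moved with this division, and it did so over all genes as well. Median GC content was 42.0% for the 9 members above the controls in knockout 1 alone and 54.5% for the 13 above in knockouts 3 and 4 alone, against 43.6% and 55.7% for all genes with those patterns. Spearman's rho of the difference from the control mean with GC content, across the 57 members, was -0.31, 0.18, 0.66 and 0.66 in knockouts 1 to 4, against -0.27, 0.05, 0.62 and 0.59 across 14129 genes. These correlations are across genes that share a library, so they carry no p. When trends with gene length and with GC content were removed in each library, 43 of 57 members were higher in the knockout and the members' median was 0.21. Over all genes 7104 of 14129 were higher in that fit and the median was 0.003.

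**Figure D3:**
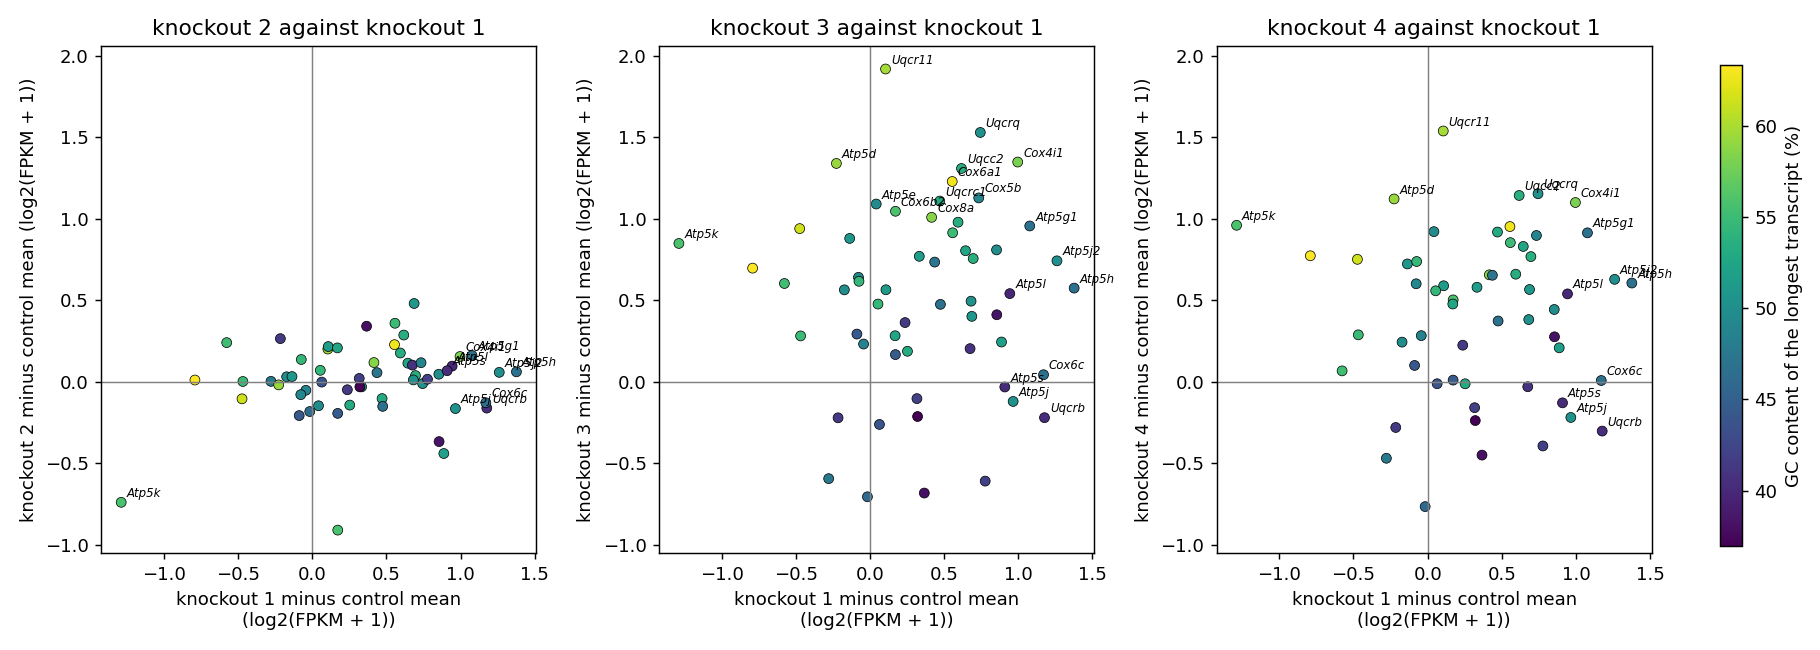
Difference of each of the 57 members from the mean of the 4 controls (log2(FPKM + 1)) in knockouts 2, 3 and 4 (vertical axes) against knockout 1 (horizontal axis), coloured by GC content. All axes share the same controls. In knockouts 3 and 4 Uqcr11 and Atp5d are high with little or no excess in knockout 1, Uqcrb and Cox6c are high in knockout 1 alone, and in knockout 2 most points lie near 0.

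Complex III members were higher in the knockout mean of log2 values in 13 of 13 cases, with a median log2 difference of 0.37 and medians of 0.47, -0.05, 0.76 and 0.75 in knockouts 1 to 4. Without knockouts 3 and 4 the median was 0.16, with 9 of 13 higher. By role, the 4 core subunits (Cyc1, Uqcrfs1, Uqcrc1 and Uqcrc2) had a median of 0.19, the 5 supernumerary subunits 0.56, and the 4 assembly factors 0.48. Without knockouts 3 and 4 these medians were -0.03 (1 of 4 higher), 0.37 and 0.27, and with length and GC trends removed they were 0.03, 0.34 and 0.35. None passed the test.

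Among the core subunits, Uqcrfs1, the Rieske iron-sulphur protein, measured 70.8, 77.0, 79.0 and 92.3 FPKM in controls 1 to 4 and 77.1, 76.6, 93.4 and 96.8 FPKM in knockouts 1 to 4. Knockouts 3 and 4 were the highest libraries and knockouts 1 and 2 lay within the control range, and the log2 difference was 0.10 ± 0.17 (SE; adjusted p = 0.736). Cyc1, the cytochrome c1 subunit, is given here after its values were seen: it measured 49.9, 54.6, 56.4 and 59.6 FPKM in controls 1 to 4 and 39.4, 51.1, 106 and 93.3 FPKM in knockouts 1 to 4. Knockout 1 was below every control while knockouts 3 and 4 were above, so that Cyc1 had a log2 difference of 0.28 ± 0.30 (SE; adjusted p = 0.610). Uqcrc1 and Uqcrc2, the core proteins on the matrix side, had log2 differences of 0.60 ± 0.26 (SE; adjusted p = 0.252) and 0.04 ± 0.17 (SE; adjusted p = 0.910).

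Of the supernumerary subunits, Uqcr10 had the highest mean FPKM in the complex, at 89.7, 92.3, 98.1 and 113 FPKM in controls 1 to 4 and 159, 100.5, 166 and 167 FPKM in knockouts 1 to 4. Knockouts 1, 3 and 4 were above every control and knockout 2 was within the control range, and the log2 difference was 0.56 ± 0.21 (SE; adjusted p = 0.214). Uqcr11, whose promoter window is shown above, measured 47.6, 37.9, 38.7 and 35.3 FPKM in controls 1 to 4 and 42.7, 45.7, 153 and 117 FPKM in knockouts 1 to 4. Only knockouts 3 and 4 left the control range, and Uqcr11 had the largest log2 difference of all members, 0.94 ± 0.40 (SE; adjusted p = 0.243). Uqcrb, given here after its values were seen, measured 40.3, 40.6, 39.7 and 42.6 FPKM in controls 1 to 4 and 93.5, 36.4, 34.9 and 32.9 FPKM in knockouts 1 to 4. Knockout 1 was above all controls and the other 3 knockouts below all of them, with a log2 difference of 0.12 ± 0.31 (SE; adjusted p = 0.833). Uqcrq had a log2 difference of 0.85 ± 0.30 (SE; adjusted p = 0.201) and Uqcrh one of 0.29 ± 0.18 (SE; adjusted p = 0.384).

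The knockouts lay above the controls without overlap for 2 of the 4 assembly factors (all genes, 4.76%). Uqcc2 (ENSMUSG00000024208, chr17:27122663-27133916, GRCm38, protein coding), which is needed to stabilise newly made cytochrome b, measured 34.1, 34.6, 43.1 and 45.8 FPKM in controls 1 to 4 and 60.5, 47.9, 98.2 and 87.5 FPKM in knockouts 1 to 4. All 4 knockouts were above all controls, with knockout 2 nearest to them, and the log2 difference was 0.84 ± 0.24 (SE; adjusted p = 0.160). Bcs1l (ENSMUSG00000026172, chr1:74588289-74592443), the ATPase that inserts the Rieske protein, measured 5.71, 6.90, 7.14 and 7.29 FPKM in controls 1 to 4 and 7.33, 7.98, 10.4 and 10.6 FPKM in knockouts 1 to 4. Its groups also did not overlap, although knockout 1 exceeded control 4 by a small margin, and its log2 difference was 0.37 ± 0.18 (SE; adjusted p = 0.285). Uqcc3 differed by 0.60 ± 0.20 (SE; adjusted p = 0.184) and Uqcc1 by 0.02 ± 0.17 (SE; adjusted p = 0.944).

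**Figure D4:**
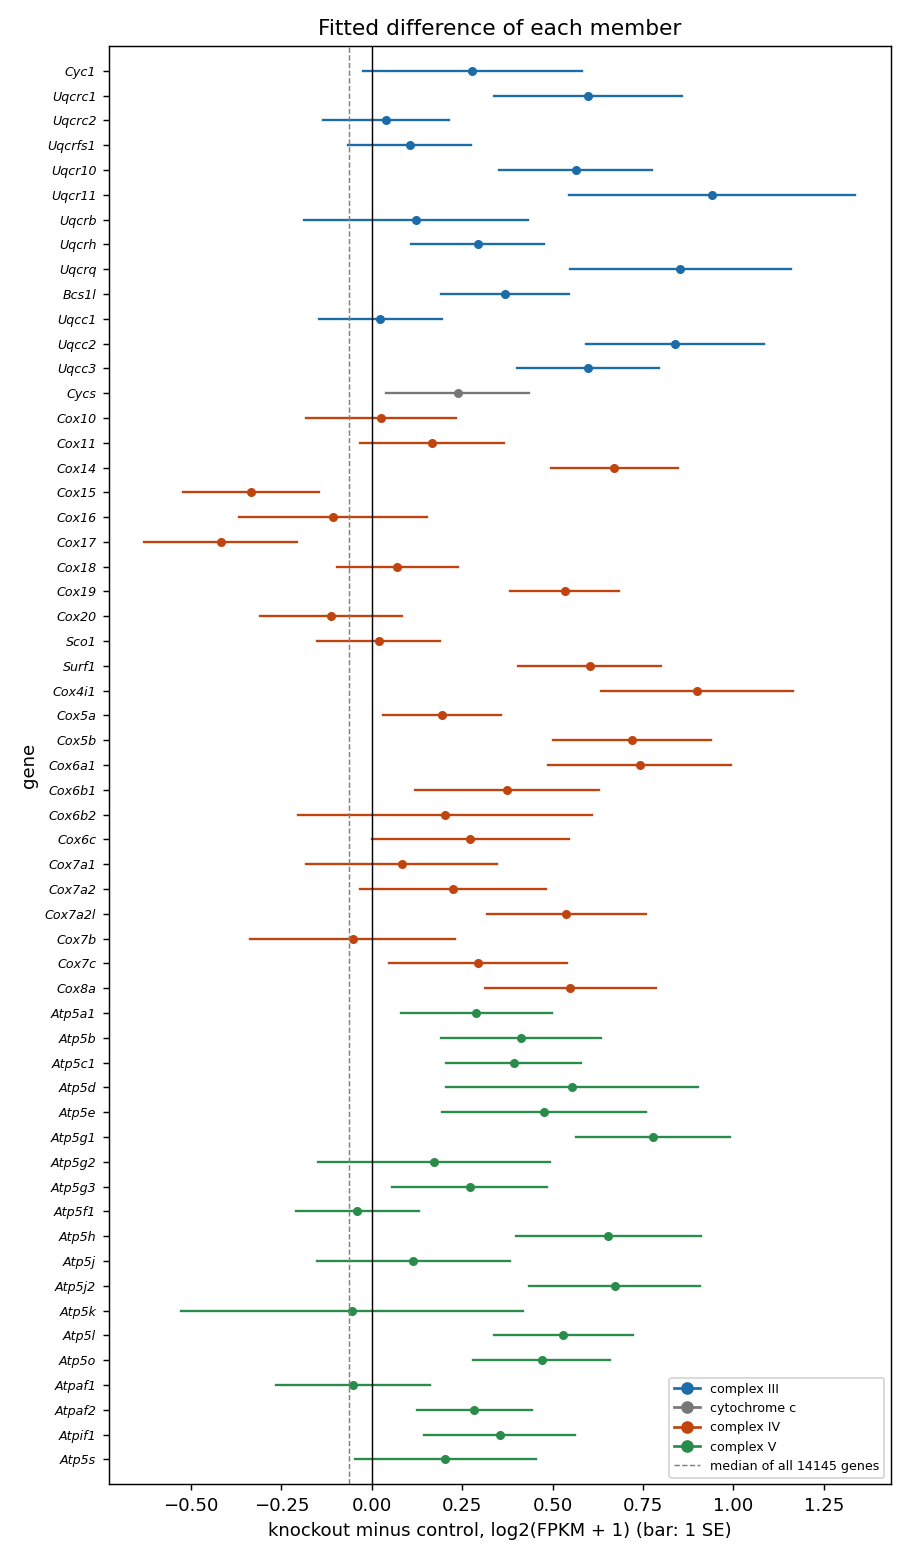
Fitted difference, knockout minus control, of log2(FPKM + 1) for each of the 57 members, with bars of 1 SE and colours by complex. The dashed line marks the median of all 14145 genes (-0.06). Most points lie to the right of 0, the largest is Uqcr11 (0.94), and the lowest is Cox17 (-0.42).

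Cycs, the mobile electron carrier between complexes III and IV, measured 16.2, 15.5, 17.6 and 22.2 FPKM in controls 1 to 4 and 28.8, 19.1, 20.5 and 17.3 FPKM in knockouts 1 to 4. Only knockout 1 was above all controls, and the log2 difference was 0.24 ± 0.20 (SE; adjusted p = 0.506).

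Complex IV members were higher in the knockout mean of log2 values in 19 of 24 cases, with a median log2 difference of 0.21. The 13 nuclear subunits had a median of 0.29 and 12 were higher, while the 11 assembly factors had a median of 0.03 and 7 were higher. With length and GC trends removed these medians were 0.28 (9 higher) and -0.03 (5 higher). Without knockout 2 the median of the complex was 0.43. The difference between subunits and assembly factors was not tested.

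Cox4i1, the nuclear subunit that carries a site of regulation by ATP, measured 145, 145, 174 and 145 FPKM in controls 1 to 4 and 304, 169, 388 and 327 FPKM in knockouts 1 to 4. Knockouts 1, 3 and 4 were above every control, and knockout 2 fell just under control 3, so the groups overlapped by that 1 library. Its log2 difference was 0.90 ± 0.27 (SE; adjusted p = 0.164), the largest among complex IV members. The related Cox4i2 was not among the genes. Cox5b (ENSMUSG00000061518, chr1:36691449-36693681), a zinc-binding subunit, measured 28.4, 25.0, 28.1 and 28.0 FPKM in controls 1 to 4 and 46.2, 29.8, 61.0 and 51.8 FPKM in knockouts 1 to 4. Every knockout library was above every control for Cox5b, knockout 2 by the least, and the log2 difference was 0.72 ± 0.22 (SE; adjusted p = 0.168).

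Cox6a1 (ENSMUSG00000041697, chr5:115345642-115348981), the form of subunit VIa found outside muscle, measured 243, 249.7, 282 and 287 FPKM in controls 1 to 4 and 389.5, 310.3, 622 and 513 FPKM in knockouts 1 to 4 and had the highest mean FPKM of all members. Its groups did not overlap, and its log2 difference was 0.74 ± 0.25 (SE; adjusted p = 0.194). Cox6b1, which lies on the side of the complex that faces cytochrome c, measured 154, 143, 166 and 152 FPKM in controls 1 to 4 and 139.6, 157, 283 and 254 FPKM in knockouts 1 to 4. Knockouts 3 and 4 were above all controls, knockout 1 was below all of them, and Cox6b1 differed by 0.37 ± 0.25 (SE; adjusted p = 0.418). Its testis-type counterpart Cox6b2 was low, at 1.36, 2.44, 4.42 and 2.76 FPKM in controls 1 to 4 and 3.04, 0.908, 6.40 and 4.08 FPKM in knockouts 1 to 4, with knockout 2 the lowest library, knockout 3 the highest and a log2 difference of 0.20 ± 0.41 (SE; adjusted p = 0.790).

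The subunit VIIa genes covered a wide range of levels. Cox7a2 measured 64.3, 65.7, 70.1 and 71.8 FPKM in controls 1 to 4 and 126, 49.8, 80.6 and 78.6 FPKM in knockouts 1 to 4, with knockout 2 below every control and the other 3 above. Cox7a2l, a factor that joins complexes III and IV into supercomplexes, measured 100.4, 101.5, 113 and 85.1 FPKM in controls 1 to 4 and 181, 103, 175 and 136 FPKM in knockouts 1 to 4, and again knockout 2 lay within the control range. Cox7a1, the heart and muscle form, was close to absent, at 0.325, 0.439, 1.05 and 0.862 FPKM in controls 1 to 4 and 0.102, 0.940, 1.49 and 0.721 FPKM in knockouts 1 to 4, which is 1 to 15 reads per library. Their log2 differences were 0.22 ± 0.26 (SE; adjusted p = 0.627) for Cox7a2, 0.54 ± 0.22 (SE; adjusted p = 0.238) for Cox7a2l and 0.08 ± 0.26 (SE; adjusted p = 0.870) for Cox7a1.

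Cox8a, a small subunit and the second most abundant member of complex IV by mean FPKM, measured 207, 186, 208 and 256 FPKM in controls 1 to 4 and 284, 231, 429 and 336 FPKM in knockouts 1 to 4. Knockouts 1, 3 and 4 were above every control, and the log2 difference was 0.55 ± 0.24 (SE; adjusted p = 0.249). Cox7b, another small subunit, was the only nuclear subunit of complex IV with a lower knockout mean of log2(FPKM + 1) (higher under median-ratio scaling, at 0.025), and it measured 47.3, 46.7, 46.4 and 58.6 FPKM in controls 1 to 4 and 85.5, 50.0, 32.1 and 37.4 FPKM in knockouts 1 to 4. Knockout 1 was the highest library and knockouts 3 and 4 the lowest, and the log2 difference was -0.05 ± 0.28 (SE; adjusted p = 0.925). Cox6c, chosen after its values were seen, was 66.5 FPKM in knockout 1 and between 26.4 and 30.1 FPKM in the other 7 libraries, a level divided by a gene length 7.09 times that of its first annotated protein-coding transcript.

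Among the assembly factors of complex IV, Cox14 (ENSMUSG00000023020, chr15:99725618-99728136), which couples the synthesis of mitochondrial COX1 to assembly, measured 54.9, 48.9, 55.1 and 51.8 FPKM in controls 1 to 4 and 78.0, 67.8, 100.1 and 95.9 FPKM in knockouts 1 to 4. All knockouts were above all controls, with knockout 2 again the lowest of them, and the log2 difference was 0.67 ± 0.17 (SE; adjusted p = 0.143). Cox19 (ENSMUSG00000045438, chr5:139336189-139351418), one of the proteins that handle copper, measured 5.70, 5.37, 6.24 and 6.02 FPKM in controls 1 to 4 and 9.99, 8.52, 8.01 and 9.10 FPKM in knockouts 1 to 4. Its 4 knockouts were all above the controls, with knockout 3 the lowest of them, and Cox19 differed by 0.53 ± 0.15 (SE; adjusted p = 0.154). Cox15, which makes the haem A of the complex, measured 7.45, 8.50, 7.79 and 10.4 FPKM in controls 1 to 4 and 6.82, 8.49, 5.28 and 5.85 FPKM in knockouts 1 to 4. Knockouts 1, 3 and 4 were below every control and knockout 2 was within their range, and the log2 difference was -0.33 ± 0.19 (SE; adjusted p = 0.342). Exons of Cox15 overlap those of Entpd7 on the opposite strand over 444 bp. Cox17, a copper chaperone at 0.172 to 1.27 FPKM, had the lowest log2 difference of all members, -0.42 ± 0.21 (SE; adjusted p = 0.303). Its FPKM was divided by a gene length 13.0 times that of its first annotated protein-coding transcript. Exons of Cox17 overlap those of Gm21987 on the same strand over 257 bp.

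Complex V members were higher in the knockout mean of log2 values in 16 of 19 cases, with a median log2 difference of 0.35 and medians of 0.32, 0.01, 0.62 and 0.60 in knockouts 1 to 4. Without knockouts 3 and 4 the median was 0.15, and with length and GC trends removed it was 0.20. The catalytic F1 sector holds 5 members, all 5 higher, with a median of 0.41, which was 0.06 (3 of 5 higher) without knockouts 3 and 4 and 0.24 with length and GC trends removed. Atp5b, the catalytic beta subunit, measured 209.7, 222, 243 and 253 FPKM in controls 1 to 4 and 292, 226, 395 and 346 FPKM in knockouts 1 to 4, and Atp5a1, the alpha subunit, measured 188, 199, 207 and 253 FPKM in controls 1 to 4 and 219, 221, 294 and 311 FPKM in knockouts 1 to 4. These were the most abundant members of complex V by mean FPKM. In Atp5b knockouts 1, 3 and 4 were above all controls, and in Atp5a1 only knockouts 3 and 4 were, and the log2 differences were 0.41 ± 0.22 (SE; adjusted p = 0.326) and 0.29 ± 0.21 (SE; adjusted p = 0.442). Atp5d, the delta subunit, chosen after its values were seen, was above every control in knockouts 3 and 4 (226 and 195 FPKM) and below every control in knockout 1 (75.9 FPKM).

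The c subunit of the proton-driven ring is made from 3 genes whose proteins differ only in the targeting sequence that is cleaved off. Atp5g1 (ENSMUSG00000006057, chr11:96068852-96075670) measured 8.78, 8.78, 9.76 and 9.38 FPKM in controls 1 to 4 and 20.5, 10.4, 18.7 and 18.1 FPKM in knockouts 1 to 4. Atp5g2 measured 60.1, 62.8, 63.5 and 69.1 FPKM in controls 1 to 4 and 36.4, 64.3, 104 and 109.7 FPKM in knockouts 1 to 4. Atp5g3 measured 70.2, 68.0, 73.4 and 76.1 FPKM in controls 1 to 4 and 68.1, 68.0, 113 and 109 FPKM in knockouts 1 to 4. In Atp5g1 all knockouts were above all controls, in Atp5g2 knockout 1 was below every control and knockouts 3 and 4 above, and in Atp5g3 only knockouts 3 and 4 were above. The log2 differences were 0.78 ± 0.21 (SE; adjusted p = 0.154) for Atp5g1, 0.17 ± 0.32 (SE; adjusted p = 0.772) for Atp5g2 and 0.27 ± 0.21 (SE; adjusted p = 0.483) for Atp5g3.

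As a share of the summed FPKM of the 3 genes, Atp5g1 made up 6.07% to 6.65% in the controls and 16.4%, 7.27%, 7.95% and 7.65% in knockouts 1 to 4. Every knockout share was above every control share, and knockout 1 stood furthest away. Atp5g2 made up 29.2% in knockout 1 and between 43.2% and 46.2% in the other 7 libraries. The size of the shares depends on gene length, which was 4912 bp for Atp5g1, 1675 bp for Atp5g2 and 2181 bp for Atp5g3. In control 1 their recovered reads were 745, 1739 and 2642. Atp5g1 and Atp5g2 also have near copies in the table, and Gm10039, that of Atp5g1, had 371 reads in control 1. The shares were computed after the values were seen and were not tested.

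Of the 7 stalk and membrane subunits, 5 were higher, with a median of 0.47 and the largest median in knockout 1 (0.94, against 0.57 and 0.61 in knockouts 3 and 4). Atp5h (ENSMUSG00000034566, chr11:115415689-115419962), subunit d of the stalk, measured 47.5, 47.9, 50.2 and 51.2 FPKM in controls 1 to 4 and 129, 51.4, 73.7 and 75.4 FPKM in knockouts 1 to 4. Knockout 1 was far above the other libraries, and knockout 2 exceeded control 4 by less than 1 FPKM, so the separation of the groups was narrow. Atp5l (ENSMUSG00000038717, chr9:44912557-44920742), subunit g, measured 9.72, 10.3, 10.3 and 10.7 FPKM in controls 1 to 4 and 20.6, 11.03, 15.4 and 15.3 FPKM in knockouts 1 to 4. Knockout 1 was again the highest library and knockout 2 the lowest of the knockouts. Their log2 differences were 0.65 ± 0.26 (SE; adjusted p = 0.225) and 0.53 ± 0.19 (SE; adjusted p = 0.206).

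Atp5f1, subunit b of the stalk, measured 38.2, 34.8, 39.6 and 38.8 FPKM in controls 1 to 4 and 47.5, 37.0, 32.5 and 31.9 FPKM in knockouts 1 to 4. Knockout 1 was above all controls and knockouts 3 and 4 below them, so Atp5f1 had a log2 difference of -0.04 ± 0.17 (SE; adjusted p = 0.903), and of 0.037 under median-ratio scaling. Atp5k, subunit e, which takes part in dimer formation, measured 39.4, 31.2, 39.2 and 29.7 FPKM in controls 1 to 4 and 13.6, 20.3, 63.1 and 68.2 FPKM in knockouts 1 to 4. Knockouts 1 and 2 were below every control and knockouts 3 and 4 above every control, which left a log2 difference of -0.05 ± 0.47 (SE; adjusted p = 0.956), and of 0.024 under median-ratio scaling. That split follows the sexes of the knockout libraries. Knockouts 3 and 4 are also those whose differences went with GC content (55.8% in Atp5k) and whose mitochondrially encoded transcripts were low. These features cannot be told apart here. With length and GC trends removed the difference of Atp5k was -0.31 ± 0.37 (SE; adjusted p = 0.654). Atp5j, subunit F6, was 57.5 FPKM in knockout 1 and 24.7 to 33.5 FPKM in the other 7 libraries.

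Atpaf2 (ENSMUSG00000042709, chr11:60400626-60418457), a chaperone that binds the alpha subunit during assembly, measured 7.83, 9.66, 10.7 and 9.74 FPKM in controls 1 to 4 and 10.7, 11.04, 11.7 and 13.5 FPKM in knockouts 1 to 4. All knockouts were above all controls, although knockout 1 and control 3 were nearly equal, and the log2 difference was 0.28 ± 0.16 (SE; adjusted p = 0.342). Atpif1, which inhibits ATP hydrolysis by the enzyme, differed by 0.35 ± 0.21 (SE; adjusted p = 0.360), and Atpaf1 by -0.05 ± 0.21 (SE; adjusted p = 0.898). Atp5s, matched by name only, differed by 0.20 ± 0.25 (SE; adjusted p = 0.653).

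Libraries of 1 sex can be compared by leaving out knockouts 1 and 2, which sets 2 male knockouts against 4 male controls. Knockouts 3 and 4 are also the libraries whose differences went with GC content and whose mitochondrially encoded transcripts were low, and in this comparison these features cannot be told apart from genotype. With limma, 33 members then passed the threshold as higher (all genes, 17.6%) and 5 as lower (all genes, 26.7%), of 38 in all. The members' median was 0.54 (all genes, -0.11). The 5 lower members were Uqcrb, Cox15, Cox16, Cox17 and Cox7b. Uqcr11 then differed by 1.73 ± 0.16 (SE; adjusted p = 0.0032), Uqcc2 by 1.23 ± 0.15 (SE; adjusted p = 0.0033) and Cox4i1 by 1.22 ± 0.15 (SE; adjusted p = 0.0032). Atp5k, whose main difference was near 0, then differed by 0.90 ± 0.15 (SE; adjusted p = 0.0049). With sex as a covariate on all 8 libraries the genotype difference again rests on knockouts 3 and 4, since every control was male: the difference of Uqcc2 was 1.23 in both fits. Only the estimate of the spread differs, and 25 members were called higher (all genes, 12.6%) and 3 lower (all genes, 21.6%).

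The number of calls changed with the knockout libraries that entered. Without knockout 2, 13 members were called higher (all genes, 2.77%) and 0 lower (all genes, 5.28%). Without knockouts 3 and 4, 0 members were called higher (all genes, 0.0212%) and 0 lower (all genes, 0.0778%). In the mean 41 of 57 were higher (all genes, 7158 of 14145), with a median of 0.18 (all genes, 0.005). In that comparison the knockouts were both female and the controls all male, so sex and genotype cannot be told apart. Over all genes the 11 calls became 1139 without knockout 2, 3 without knockout 3, and 1 without knockout 1, knockout 4 or control 1, 2 or 3.

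In knockouts 3 and 4 the mitochondrially encoded partners of the same complexes were low while most nuclear members were high. mt-Cytb, the complex III subunit encoded in mitochondrial DNA, measured 1625, 2097, 1827 and 2614 FPKM in controls 1 to 4 and 1782, 2481, 471 and 675 FPKM in knockouts 1 to 4. mt-Co1, the catalytic subunit of complex IV, measured 4597, 6337, 5982 and 9865 FPKM in controls 1 to 4 and 6328, 6215, 1709 and 1980.3 FPKM in knockouts 1 to 4. Knockouts 3 and 4 were below every control for both transcripts, while knockouts 1 and 2 lay within the control range, and neither passed the test (log2 differences of -0.88 ± 0.52 (SE; adjusted p = 0.363) and -0.92 ± 0.56 (SE; adjusted p = 0.369)). For mt-Co2, mt-Co3 and mt-Atp6 knockouts 3 and 4 were below every control too, but knockouts 1 and 2 were above every control. The margin was small in knockout 2 for mt-Co3, at 35.6 FPKM against 35.3 FPKM in control 4. The control means of mt-Co2, mt-Co3 and mt-Atp6 were 33.4, 32.2 and 27.5 FPKM, against 2041 for mt-Cytb and 6695 for mt-Co1. The search for near copies covered the members only and not these partners. The median over the 5 partners was 0.48, 0.30, -1.55 and -1.12 in knockouts 1 to 4. mt-Atp8 was not among the genes. Median GC content was 38.9% for the partners and 50.2% for the members. All genes below the members' median GC content had medians of -0.57 and -0.40 in knockouts 3 and 4. With length and GC trends removed the partners' median log2 difference was -0.34, against -0.40 in the main fit. The part of GC content in these levels was not tested.

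**Figure D5:**
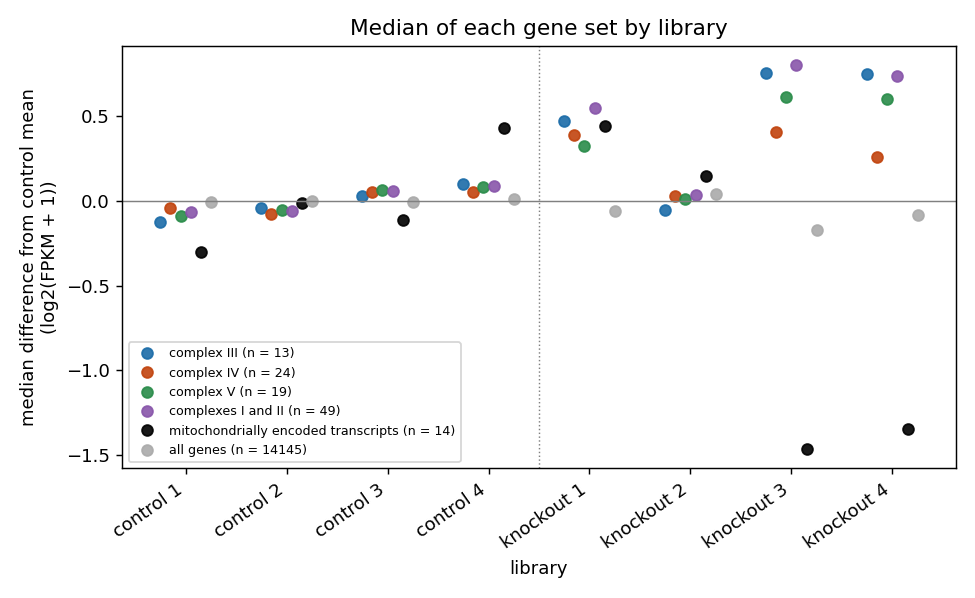
Median difference from the mean of the 4 controls, in log2(FPKM + 1), for each complex, for complexes I and II, for the 14 mitochondrially encoded transcripts and for all genes, by library. In knockouts 3 and 4 the nuclear sets lie above 0 and the mitochondrially encoded transcripts lie at -1.47 and -1.34.

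Other nuclear sets of the mitochondrion had medians of the same sign as the members. The median log2 difference was 0.50 over 49 genes of complexes I and II (47 higher) and 0.28 over 77 mitochondrial ribosomal protein genes (66 higher). Of 26 listed subunits and factors of complexes III to V outside the symbol rule, 21 were measured and 13 were higher, with 0 past the test. Among all genes 44.5% were higher and 0.0778% passed. Ndufa4 is counted in this list and among the genes of complexes I and II. Coa6, a copper-handling factor of complex IV, measured 16.7, 17.1, 15.001 and 15.3 FPKM in controls 1 to 4 and 34.4, 27.5, 24.4 and 27.6 FPKM in knockouts 1 to 4, and all knockouts were above all controls (log2 difference 0.78 ± 0.16 (SE; adjusted p = 0.0996)). Cmc2 and Oxa1l, the latter an insertase of the inner membrane, also had all knockouts above all controls. That made 3 of the 21 with this pattern (all genes, 4.76%).

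Regulators of respiratory chain genes were mostly lower. Of 8 listed, 1 had a higher knockout mean of log2(FPKM + 1) (all genes, 44.5%), and 0 passed the test. Their median log2 difference was -0.46. It was -0.17 with length and GC trends removed and -0.22 without knockouts 3 and 4. Esrra, the nuclear receptor ERR alpha, measured 18.1, 15.8, 20.4 and 12.9 FPKM in controls 1 to 4 and 10.8, 17.2, 38.2 and 28.7 FPKM in knockouts 1 to 4, with knockouts 3 and 4 above every control and knockout 1 below (log2 difference 0.35 ± 0.35 (SE; adjusted p = 0.578)). Yy1 measured 27.1, 24.8, 25.8 and 24.4 FPKM in controls 1 to 4 and 22.1, 22.4, 12.9 and 14.8 FPKM in knockouts 1 to 4, with all knockouts below all controls (log2 difference -0.51 ± 0.20 (SE; adjusted p = 0.227)). Pprc1 and Nrf1 were also below every control in all knockouts (all genes with this pattern, 6.86%), at -0.49 ± 0.21 (SE; adjusted p = 0.247) and -0.17 ± 0.15 (SE; adjusted p = 0.527). The part of these regulators, of other cell types and of sex in the members' differences was not tested.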

How the data were processed

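RNA-seq of 8 untreated libraries was analysed from the deposited table. The authors deposited FPKM values for 14145 genes, with their own log2 fold change, p-value, adjusted p-value and up or down mark. Per the submitters' processing notes, the tools were FastQC, STAR 2.4.1d and DESeq2 and the build was GRCm38. The counter, annotation, strand setting and row filter remain not given in the sources used here. Although the table calls its values raw counts, they carry decimals, and 95.0% to 95.5% of low values became whole reads (within 0.05 read) after multiplication by GENCODE M21 exon-union length, against 8.78% to 10.4% with a wrong step. No value column lacked a sample (0 columns).

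The test was limma 3.58.1 on log2(FPKM + 1) (R 4.3.3, variance trend, genotype only, two-sided, all genes, 8 libraries, Benjamini-Hochberg at 0.05). It was tested on simulated data whose noise was independent between genes and of equal spread in both groups. In the real libraries the median SD of log2(FPKM + 1) over all genes was 0.18 in controls and 0.42 in knockouts. The simulation therefore does not show how the test behaves with such unequal spreads. On this scale the fold change of a low gene comes out too small. Other software was numpy 2.4.6, pandas 2.3.3 and matplotlib 3.10.9 under Python 3.11.15.

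Members and lists were chosen with earlier results of these data known. All 8 values are given for members that, within their complex, were past the threshold, among the 4 largest differences without overlap, among the 2 highest means, lower with a mean of at least 5 FPKM, or in an isoform pair; other members named are marked or given by their difference. Counts per library, groups by knockout library, the GC comparison, shares of the c subunit genes, the near-copy search (95% identity over 200 bp), transcript lengths and the promoters of Uqcr11 and Atp5j were added after the values were seen; for the contrasts Cyc1, Uqcrb and Cox6c were tried before them and had no matched window.

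Alternatives were pseudocounts of 0.1 and 0.5, a filter, no variance trend, a sex covariate, a replicate block, library weights, median-ratio scaling, limma-voom on recovered reads, removal of length and GC trends (lowess, span 0.3), and leaving out libraries. Replicate libraries of a group differed in their counts by far more than sampling noise, so none was merged.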

Additional observations from a re-analysis of the deposited data

Results flagged for a closer look

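In 120 groups of 4 libraries (57 members and the medians of 3 complexes, each in 2 groups), 10 held a library whose gap to the nearest of the others exceeded the 95% limit of Dixon's test for 4 values, and chance gives such a flag in about 1 of 20 groups. Knockout 1 was the far library in 4 of them: Uqcrb at 93.49 FPKM against 32.89 to 36.37 in the other knockouts, Cox6c at 66.49 against 26.42 to 29.89, Atp5j at 57.47 against 24.73 to 26.54, and Atp5s at 8.60 against 3.67 to 4.36. Knockout 2 was far from the other knockouts in Uqcr10, at 100.49 FPKM against 159.21 to 167.34, and in Cox20, at 0.82 against 0.25 to 0.31, where the values rest on few reads. Among controls, Cox4i1 was 174.13 FPKM in control 3 against 144.54 to 145.44, Cox5b was 25.02 in control 2 against 28.02 to 28.42, Cox7b was 58.62 in control 4 against 46.39 to 47.27, and Atp5s was 3.10 in control 1 against 4.47 to 4.55.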

How the results depend on the processing

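The 11 genes called over all genes became 3 with a pseudocount of 0.1, 7 with limma-voom on recovered reads, 2 with length and GC trends removed, 4838 with a sex covariate, 6275 without knockouts 1 and 2, and 1 to 1139 when each library was left out in turn. Members called, 0 in the main analysis, were 28 with a sex covariate, 38 without knockouts 1 and 2, and 0 to 13 when each library was left out, 13 without knockout 2. The planned library weights of limma, fitted by its default method, stopped before their convergence tolerance was met, gave knockout 4 a weight of 43.7 against 0.0916 for knockout 1, and the fit called 10938 genes and 48 members. The gene-by-gene method was added after that result was seen, and it called 7802 genes and 36 members, so neither count is given as support. The complex III median (0.37) was 0.76 with a sex covariate and without knockouts 1 and 2, which give the same estimate because every control was male, 0.76 with the default weights and 0.71 with the gene-by-gene weights. The complex V median (0.35) was 0.62, 0.62, 0.62 and 0.59 in the same 4 fits, and 0.20 with length and GC trends removed. Without knockouts 3 and 4 the complex III and V medians were 0.16 and 0.15. The complex IV median (0.21) ranged from 0.17 to 0.43 when each library was left out. Members without overlap (10) numbered 10 to 26 when each library was left out, an alternative chosen after seeing the data. Under every alternative run, 41 to 53 members were higher.

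Same-numbered libraries did not pair: the correlations of their deviations from the group means were 0.04, -0.20, 0.56 and -0.06, and not every library correlated best with its own number. A replicate block called 1 gene and 0 members.

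Of 31 members given in full, 12 changed the sign of their difference under at least 1 alternative, and of all 57 members 26 did. The cause was not tested. Under median-ratio scaling Cox7b was 0.025, Atp5f1 0.037 and Atp5k 0.024. With length and GC trends removed Cyc1 was -0.0013, Uqcrfs1 -0.051, Cox6b2 -0.11, Cox7a1 -0.15, Cox7a2 -0.0068, Atp5g2 -0.12 and Atp5f1 0.19. Without knockouts 3 and 4 Cyc1 was -0.29, Uqcrfs1 -0.048, Cox6b1 -0.052, Cox6b2 -0.37, Cox7a1 -0.17, Cox7b 0.40, Atp5g2 -0.39, Atp5g3 -0.078 and Atp5f1 0.14. Atp5k was 0.90 with a sex covariate and without knockouts 1 and 2, 0.98 with the default weights and 0.80 with the gene-by-gene weights. Uqcrb was -0.26, -0.29 and -0.22 in those fits, and limma-voom gave Cox7a1 -0.020. When each library was left out, the ranges were -0.23 to 0.27 for Uqcrb, -0.079 to 0.57 for Cox6b2, -0.090 to 0.30 for Cox7a1, -0.33 to 0.13 for Cox7b, -0.028 to 0.49 for Atp5g2, -0.16 to 0.026 for Atp5f1 and -0.39 to 0.36 for Atp5k. Depth limits Cox7a1 (1 to 15 reads per library) and Cox20 most.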

Other observations

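Several members have near copies elsewhere in the genome, and the labels do not say how reads that fit both places were counted. For 16 members an annotated gene at another locus shares a stretch of at least 200 bp at 95% identity or more, and for 13 of them at least 1 such gene is in the table. Gm10039, which shares such a stretch with Atp5g1, measured 52.3, 58.9, 40.4 and 50.1 FPKM in controls 1 to 4 and 61.6, 53.4, 98.1 and 93.2 FPKM in knockouts 1 to 4, with knockouts 1, 3 and 4 above every control, knockout 1 by the least, and knockout 2 within the control range. Gm10221, which shares one with Atp5l, measured 59.6, 66.6, 80.7 and 65.3 FPKM in controls 1 to 4 and 176, 71.4, 121 and 109.6 FPKM in knockouts 1 to 4. Knockouts 1, 3 and 4 were above every control in Gm10221, as they were in Atp5l itself. Gm10250, a near copy of Atp5h, measured 21.4, 27.1, 34.9 and 28.4 FPKM in controls 1 to 4 and 59.6, 35.1, 33.7 and 29.7 FPKM in knockouts 1 to 4, and Gm10053, a near copy of Cycs, measured 7.51, 6.61, 7.48 and 9.36 FPKM in controls 1 to 4 and 4.41, 6.54, 8.03 and 7.08 FPKM in knockouts 1 to 4. In Gm10053 knockout 1 was the lowest library, whereas in Cycs it was the highest. Gm14117, a near copy of Atpaf1, measured 9.14, 7.10, 9.82 and 11.6 FPKM in controls 1 to 4 and 10.95, 11.1, 7.02 and 6.34 FPKM in knockouts 1 to 4. Gm2962, the most abundant of 3 near copies of Uqcrb in the table, measured 3.27, 3.84, 3.18 and 10.1 FPKM in controls 1 to 4 and 17.8, 10.98, 1.43 and 2.79 FPKM in knockouts 1 to 4, with knockout 1 the highest library as in Uqcrb. The values of these members are uncertain to the extent that reads were divided with these copies.

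The FPKM of some members also depends on the length assigned to the gene. The exon-union length was 13.0 times that of the first annotated protein-coding transcript in Cox17, 11.8 times in Atp5l, 7.09 times in Cox6c and 5.62 times in Cox16, against a median of 1.66 over the members, so levels of these genes are not comparable with those of the others. Cox20 overlaps Hnrnpu on the opposite strand over 804 of its 883 bp, and Cox11 overlaps Tom1l1 on the opposite strand over 688 bp. On the same strand, Cox16 overlaps Gm20498 over 2130 bp and Cox17 overlaps Gm21987 over 257 bp. Reads of these genes cannot be told apart where strand or gene was not resolved. Atp5j overlaps Gabpa, the ETS factor GABP alpha, on the opposite strand over 397 bp. Gabpa measured 8.82, 8.15, 6.85 and 12.5 FPKM in controls 1 to 4 and 8.64, 10.8, 2.14 and 4.85 FPKM in knockouts 1 to 4, with knockouts 3 and 4 below every control.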
